A study of Mus musculus with 10 samples.

Results

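The 10 genes of the actin cytoskeleton of dendritic spines described here were measured in hippocampal synaptoneurosomes, the pinched-off and resealed synaptic compartments that are obtained when brain tissue is homogenised gently. They were chosen by name as actins and spine actin regulators, several of which have mRNA in dendrites, and comprise 10 of the 22255 genes in the gene table. They are the actins Actb and Actg1, the small GTPase Rac1, the kinase Limk1 and its substrate Cfl1, and the spine proteins Dbn1, Synpo, Ppp1r9a, Ppp1r9b and Ddn. The preparations came from wild-type C57Bl/6J mice that had been given vehicle (5 libraries) or AM6545 (5 libraries) sub-chronically. AM6545 blocks CB1, the main cannabinoid receptor of neurons, but crosses into the brain only poorly, and no other treatment, allele or age is named for either group. The labels do not say whether a library is 1 animal or a pool, so each p-value measures only the spread between these libraries, which may be partly technical. The design asks whether the mRNAs of the spine cytoskeleton differ in the synaptic fraction after the drug.

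Dendritic spines are the small protrusions that carry most excitatory synapses of the hippocampus, and their shape is held and changed by actin filaments. Signals at the synapse act on the small GTPase Rac1, which acts through kinases on LIM kinase. LIM kinase phosphorylates and thereby inactivates cofilin, the protein that severs and depolymerises filaments. Drebrin and the spinophilin family bind the filaments themselves, and synaptopodin marks the spine apparatus, a membrane stack in the neck of large spines.

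The libraries held 18106112 to 25899794 estimated counts, and the 10 genes together held 0.586 to 0.739% of them. Markers of excitatory neurons (6 of 6 genes tested) had a mean log2 CPM of 7.60 to 7.93 in vehicle and 7.69 to 7.89 in AM6545 libraries, and none was at 0. CPM is the library-scaled count after TMM normalisation, edgeR's correction for library composition. Glial markers were also present, with 9.83 to 10.3 and 9.72 to 10.7 for oligodendrocytes (6 of 6 genes), 8.67 to 8.95 and 8.65 to 9.11 for astrocytes (6 of 6) and 6.24 to 6.59 and 6.15 to 6.62 for microglia (6 of 6). The fraction therefore held RNA of several cell types, and fewer cells or compartments of a type cannot be told apart from less RNA in each. Over the 9 marker lists the smallest p was 0.349 (dendritic mRNA; exact permutation test, adjusted p 0.968). Vehicle replicate 4 stood apart in choroid plexus markers, with a mean log2 CPM of 1.42 where the rest of its group had 5.89 to 6.26 and the AM6545 group 4.20 to 6.36. The part of that library's tissue make-up in the results was not tested, and the values that change direction without it are given with each gene.

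All 10 genes passed the filter on low counts, and none passed the test between the groups. With edgeR's quasi-likelihood test on the whole gene table, 0 of the 10 had a Benjamini-Hochberg adjusted p under 0.05, beside 0.0% of the 14358 genes tested, and the adjusted p of each was 0.9998. Without adjustment, p was under 0.05 for 0 of 10 as well, against 1.88% of all genes, and the groups overlapped for every one of the 10, against 0.293% of genes whose groups did not overlap. The number of all genes at that level moved with single libraries, from 270 of 14358 to 578 without vehicle replicate 2, 504 without AM6545 replicate 3, 414 without vehicle replicate 4 and 165 without AM6545 replicate 4, and 1 of the 10 (Synpo) reached it without vehicle replicate 2. With all libraries, the unadjusted p of the 10 genes ran from 0.153 (Synpo) to 0.980 (Limk1). Of the estimates, 8 lay above 0 and 2 below, with a median log2 fold change of 0.057 beside -0.0058 over all tested genes, of which 48.1% were above 0. The 95% intervals of all 10 contained 0, and they reached from 0.756-fold to 1.38-fold.

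**Figure D1:**
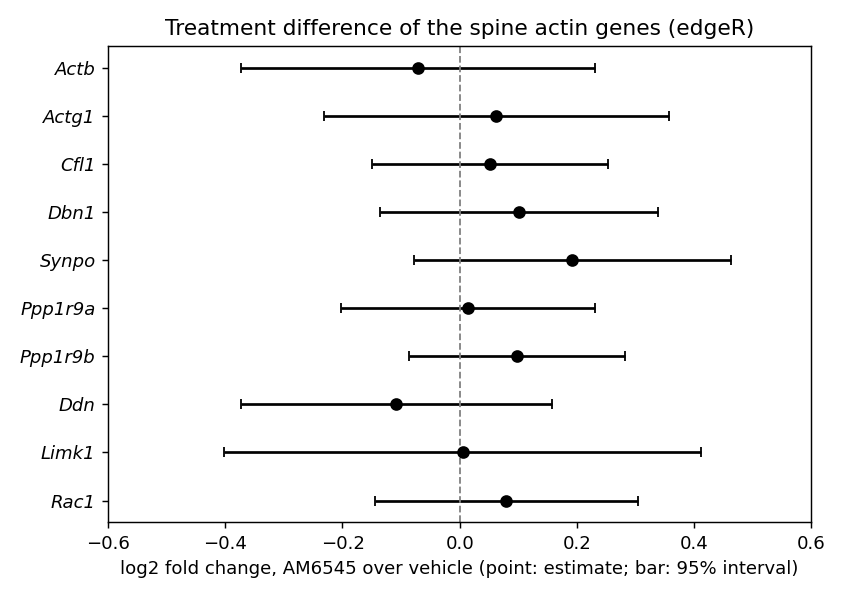
Log2 fold change of each spine actin gene, AM6545 over vehicle, with points for the edgeR estimate and bars for the 95% interval. Every bar crosses the dashed line at 0; Synpo has the highest estimate (0.19) and Ddn the lowest (-0.11).

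Levels differed far more between the genes than between the groups. To compare genes, counts were divided by transcript length and scaled to the same total in each library, and this level per length was 4355 ± 511 for Actb, 1717 ± 249 for Actg1, 987 ± 112 for Cfl1 and 514 ± 75.3 for Rac1 (SD, n = 10 libraries). Ddn (183 ± 19.8) and Dbn1 (179 ± 28.1) followed, then Ppp1r9b (29.7 ± 3.03), Ppp1r9a (24.5 ± 4.79), Synpo (11.4 ± 2.10) and Limk1 (5.53 ± 1.599). Among these genes the mRNAs of the actins and of the filament-severing Cfl1 were thus the most abundant, and the mRNA of the kinase Limk1 the least. Ddn and Dbn1 did not differ beyond their spread, Ddn being higher in 4 of 10 libraries. Ppp1r9b was above Ppp1r9a in 9 of 10 libraries, although their ranges overlapped, and Synpo was above Limk1 in 10 of 10 although theirs overlapped too. For each of the other neighbours the lowest library of the more abundant gene lay above the highest library of the next.

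**Figure D2:**
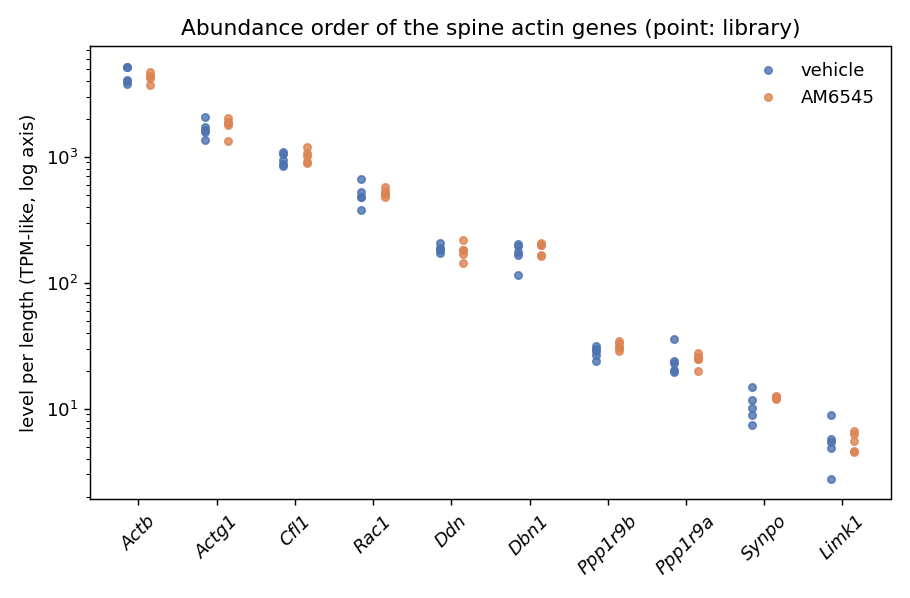
Level per transcript length (log axis, counts per kilobase, scaled to a common total) of each gene in each library, vehicle in blue and AM6545 in orange. The genes span from about 4355 for Actb to 5.53 for Limk1 on average, and the 2 groups lie over each other for every gene.

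Actb encodes beta-actin, whose mRNA is carried into dendrites, and Actg1 encodes gamma-actin; these are the cytoplasmic actins that build the filaments of the spine. Actb lies at chr5:142903115-142906754 (minus strand) and Actg1 at chr11:120345690-120348542 (minus strand; GRCm38 with the GENCODE M21 annotation). The reference coding sequences are so alike that their first 60 bases are shown, with the bases that differ between them in capitals (9 of 60; over the whole coding sequence 128 of 1128 bases differ, 88.7% identical).
Actb: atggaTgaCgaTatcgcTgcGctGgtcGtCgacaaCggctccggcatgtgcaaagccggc
Actg1: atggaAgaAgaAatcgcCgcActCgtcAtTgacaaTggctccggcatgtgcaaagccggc
Reads that fall wholly in stretches identical between genes cannot be assigned by sequence alone. Between the coding sequences of the actins no base differs between positions 888 and 951, whereas the 60 bases shown are broken by differences. Of the 31-base words of Actg1 40.2%, and of those of Actb 23.5%, also occur in other annotated genes. The gene sharing most words was Gm12715 for Actg1 and Lrrc58 for Actb, not the other actin. The counts of both actins are therefore uncertain. Words shared between the actins were not counted apart, so the percentages do not measure how well the actins are told from each other.

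Actb (ENSMUSG00000029580.15) was measured at 3711, 2150, 2598, 3473 and 2598 CPM in vehicle replicates 1 to 5. The AM6545 libraries gave 2739, 3110, 2453, 2870 and 2660 CPM. The vehicle libraries held both the highest and the lowest value, and all 5 AM6545 libraries lay between them. The log2 fold change was -0.07 ± 0.14 (SE; 95% interval -0.37 to 0.23), and it lay above 0 when vehicle replicate 1 (0.033) or vehicle replicate 4 (0.0015) was left out. Its direction thus rested on those libraries.

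Actg1 (ENSMUSG00000062825.16) was at 1871, 1361, 1355, 2061 and 1543 CPM in vehicle and at 1901, 1883, 1321, 1773 and 1678 CPM in AM6545 libraries. Vehicle replicate 4 was highest and AM6545 replicate 3 lowest, with the groups fully interleaved (log2 fold change 0.06 ± 0.14, SE; 95% interval -0.23 to 0.36). With 1 library left out it ran from 0.0021 (without vehicle replicate 3) to 0.16 (without vehicle replicate 4). The ratio of Actb to Actg1 counts ran from 1.44 in AM6545 replicate 1 to 1.98 in vehicle replicate 1. On the log2 scale the ratio was 0.82 ± 0.14 in vehicle and 0.70 ± 0.13 with AM6545 (SD over the 5 libraries of each group; exact permutation p = 0.190, adjusted over 3 ratios 0.524). The balance of the cytoplasmic actins therefore differed by less than could be told from the spread between libraries.

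Rac1, Limk1 and Cfl1 form a chain from the GTPase to the filament. Rac1 (ENSMUSG00000001847.15, chr5:143503634-143528036, minus strand) promotes the growth of branched actin networks in spines. It was at 402, 587, 462, 486 and 491 CPM in vehicle and 498, 476, 503, 533 and 555 CPM in AM6545 libraries. Vehicle replicates 1 and 2 were the lowest and the highest of all 10, and the AM6545 libraries lay between them. The log2 fold change was 0.08 ± 0.11 (SE; 95% interval -0.14 to 0.30), and it was 0.019 without vehicle replicate 1, 0.050 without AM6545 replicate 5 and 0.16 without vehicle replicate 2.

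Limk1 (ENSMUSG00000029674.14, chr5:134656039-134688598, minus strand) encodes LIM kinase 1, which is concentrated in neurons and acts on cofilin. Its CPM values were 5.05, 12.5, 8.51, 7.95 and 9.22 in vehicle and 9.29, 6.93, 7.33, 10.7 and 8.95 in AM6545 libraries. The vehicle group again held both ends, in replicates 1 and 2. With 104 to 263 counts per library it was the gene with fewest counts, and its within-group spread was above that of 85.7% of tested genes. The log2 fold change was 0.0049 ± 0.19 (SE; 95% interval -0.40 to 0.41), and its direction was not stable: it lay below 0 with DESeq2 size factors, with total count scaling and with 6 of the 10 libraries left out in turn. Those were vehicle replicates 1 (-0.14), 3 (-0.00051) and 4 (-0.024) and AM6545 replicates 1 (-0.031), 4 (-0.086) and 5 (-0.0068).

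Cfl1 (ENSMUSG00000056201.9, chr19:5490455-5495201, plus strand) encodes cofilin 1, the non-muscle form. It was at 846, 823, 777, 836 and 839 CPM in vehicle and 779, 862, 788, 870 and 970 CPM in AM6545 libraries. AM6545 replicates 2, 4 and 5 lay above every vehicle library, and replicate 5 was highest. AM6545 replicates 1 and 3 were lower than all vehicle libraries except vehicle replicate 3, which was lowest. The highest library was 1.25 times the lowest, and the within-group spread was above that of only 4.08% of tested genes. Even with this small spread the log2 fold change, 0.05 ± 0.095 (SE; 95% interval -0.15 to 0.25), did not pass the test. It was 0.0013 without AM6545 replicate 5 and 0.079 without AM6545 replicate 3. Of its 31-base words, 13.2% occur in other genes, and an exon of Snx32 overlaps it on the opposite strand. The ratio of Limk1 to Cfl1 counts, kinase to substrate, ran from 0.00597 to 0.0151, in vehicle replicates 1 and 2. Its difference between the groups was -0.0049 on the log2 scale (exact permutation p = 1.0; adjusted p = 1.0), with a sign that changed in 6 of 10 leave-one-out values.

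**Figure D3:**
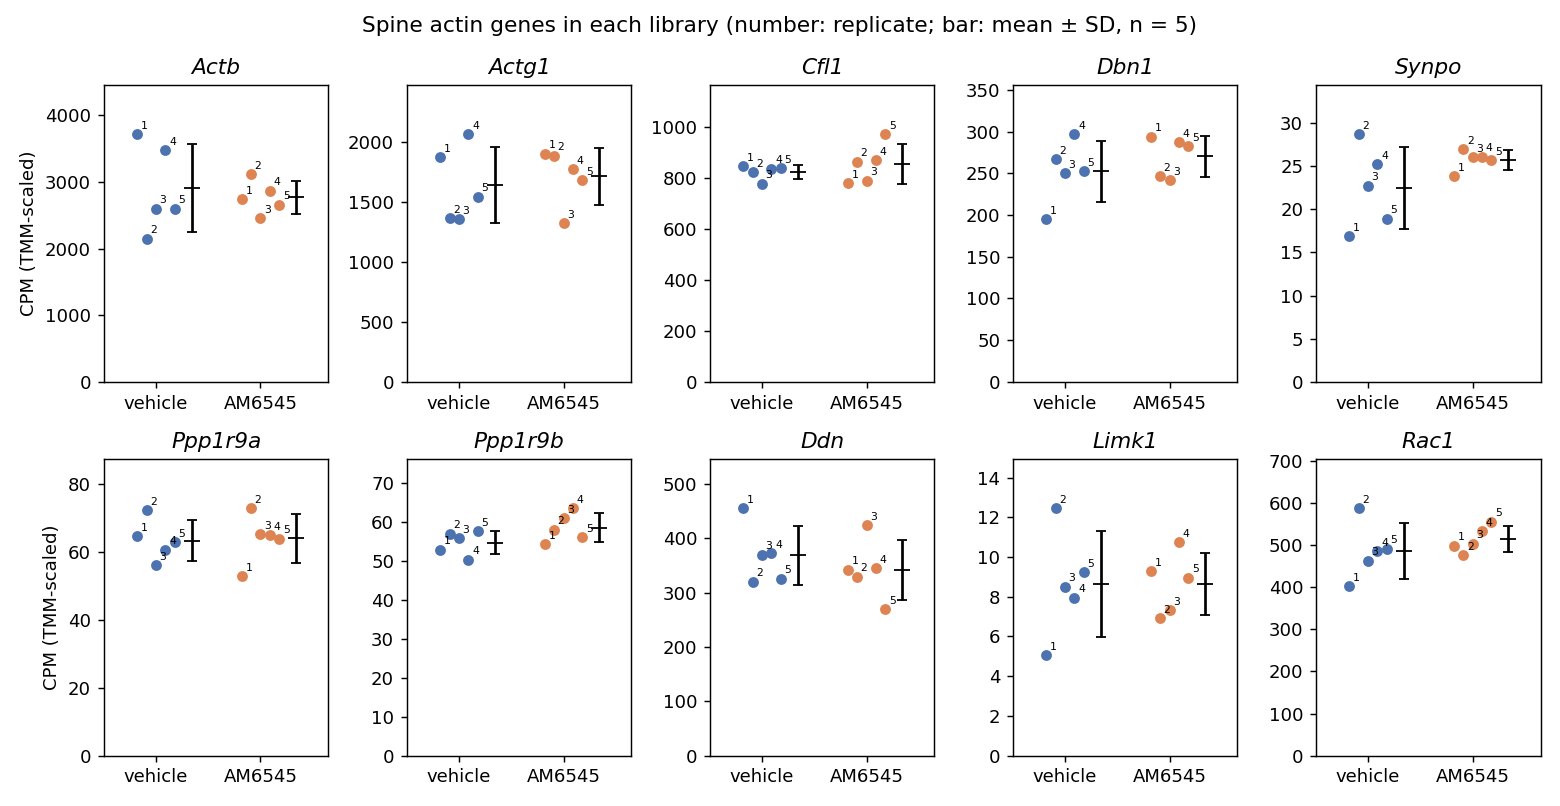
CPM of each spine actin gene in each library (points numbered by replicate; bars are mean ± SD, n = 5). In every panel the AM6545 points overlap the vehicle points, and the panels for Limk1, Rac1, Synpo and Dbn1 have vehicle replicate 1 at the bottom.

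Among the proteins that bind spine filaments, Dbn1 encodes drebrin, which decorates and stabilises filaments in spines. Dbn1 (ENSMUSG00000034675.18, chr13:55473429-55488111, minus strand) was at 195, 267, 250, 297 and 252.4 CPM in vehicle and at 294, 247, 242, 288 and 283 CPM in AM6545 libraries. Vehicle replicate 1 was well below the other 9 libraries, which spread from 242 to 297 CPM without a break between the groups. The log2 fold change was 0.10 ± 0.11 (SE; 95% interval -0.14 to 0.34), and it was 0.022 without vehicle replicate 1, 0.061 without AM6545 replicate 1 and 0.17 without vehicle replicate 4.

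Synpo (ENSMUSG00000043079.18) encodes synaptopodin, which binds actin and alpha-actinin and is needed for the spine apparatus. It was at 16.9, 28.7, 22.7, 25.2 and 18.9 CPM in vehicle and 23.8, 26.9, 26.01, 26.05 and 25.7 CPM in AM6545 libraries. The AM6545 libraries lay close together (25.7 ± 1.16, SD, n = 5) inside the wider vehicle range (22.5 ± 4.74), in which replicates 1 and 5 were low and replicate 2 was the highest of all. Synpo had the largest estimate of the 10 genes, a log2 fold change of 0.19 ± 0.13 (SE; 95% interval -0.079 to 0.46). The estimate was 0.11 without vehicle replicate 1 and 0.14 without vehicle replicate 5. Without vehicle replicate 2 it was 0.30, with an unadjusted edgeR p of 0.0249 and an adjusted p above the threshold, so its size moved with single vehicle libraries.

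Ppp1r9a and Ppp1r9b encode neurabin and spinophilin, scaffolds that bind actin filaments and bring protein phosphatase 1 to the spine. Ppp1r9a (ENSMUSG00000032827.16, chr6:4902917-5165661, plus strand) was at 64.6, 72.4, 56.2, 60.7 and 62.9 CPM in vehicle and 52.9, 72.9, 65.3, 65.0 and 64.0 CPM in AM6545 libraries. AM6545 libraries held both the highest and the lowest value. Its log2 fold change was 0.01 ± 0.10 (SE; 95% interval -0.20 to 0.23), and it lay below 0 without AM6545 replicate 2 (-0.036), vehicle replicate 3 (-0.026) or vehicle replicate 4 (-0.00033).

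Ppp1r9b (ENSMUSG00000038976.13, chr11:94991035-95006899, plus strand) was at 52.9, 57.0, 55.9, 50.4 and 57.7 CPM in vehicle and 54.3, 58.1, 61.0, 63.6 and 56.1 CPM in AM6545 libraries. AM6545 replicates 2, 3 and 4 lay above every vehicle library and the other 2 lay among them. The log2 fold change was 0.10 ± 0.087 (SE; 95% interval -0.087 to 0.28), in a gene whose within-group spread exceeded that of only 2.33% of tested genes. The ratio of Ppp1r9a to Ppp1r9b counts ran from 0.975 to 1.27 over the libraries. Per transcript length, the measure used above to order the genes, it ran from 0.687 to 1.21. The log2 difference of the count ratio between the groups was -0.085 (exact permutation p = 0.349, adjusted p = 0.524).

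Ddn encodes dendrin, a postsynaptic protein whose mRNA is found in dendrites. Ddn (ENSMUSG00000059213.8, chr15:98803777-98809490, minus strand) was at 455, 320, 369, 372 and 325 CPM in vehicle and 342, 329, 424, 345 and 269 CPM in AM6545 libraries. Vehicle replicate 1 was highest and AM6545 replicate 5 lowest, while AM6545 replicate 3 was second only to vehicle replicate 1. Its log2 fold change of -0.11 ± 0.13 (SE; 95% interval -0.37 to 0.16) was the lowest of the 10. It was -0.020 without vehicle replicate 1, -0.033 without AM6545 replicate 5 and -0.20 without AM6545 replicate 3. An exon of B130046B21Rik overlaps Ddn on the opposite strand, and whether the counting used strand is not given in the sources used here; the same holds for Daglb at Rac1.

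Each gene had its own spread and pattern over the libraries. Over all 10 libraries, both groups included, the highest was 2.47 times the lowest for Limk1, 1.73 for Actb, 1.70 for Synpo, 1.69 for Ddn, 1.56 for Actg1, 1.52 for Dbn1, 1.46 for Rac1, 1.38 for Ppp1r9a, 1.26 for Ppp1r9b and 1.25 for Cfl1. Vehicle replicate 1 was the lowest of all libraries for 4 genes (Dbn1, Synpo, Limk1 and Rac1) and the highest for 2 (Actb and Ddn). In that library Limk1 lay -0.73, Synpo -0.49, Dbn1 -0.41 and Rac1 -0.31 from its own mean on the log2 scale, while Actb lay 0.41 and Ddn 0.37 above. The same library had the lowest mean of the excitatory neuron markers (7.60) and of the dendritic mRNA markers (6.93); their part in the pattern was not tested. Vehicle replicate 2 was highest for 3 genes, Synpo, Limk1 and Rac1.

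**Figure D4:**
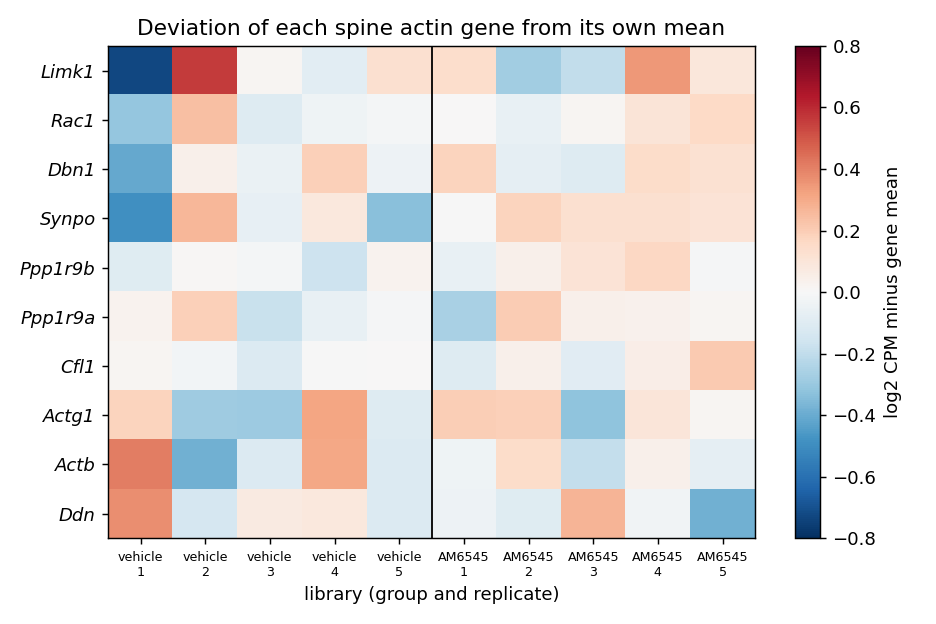
Deviation of each gene from its own mean over the 10 libraries (colour, log2 CPM; blue below, red above), with vehicle to the left of the line. Vehicle replicate 1 shows the deepest blue (Limk1, -0.73) beside red for Actb (0.41) and Ddn (0.37), and no column block separates the groups.

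Correlations were computed for all 45 pairs of the genes over the 10 libraries, which share depth and preparation, and 0 had an adjusted p under 0.05. Limk1 and Rac1 had the highest Pearson r, 0.873 (permutation p = 0.00238, adjusted 0.07; Spearman's rho 0.733, permutation p = 0.02, adjusted 0.399). Without the 2 libraries farthest from the median of Limk1, vehicle replicates 1 and 2, it fell to 0.498. Without vehicle replicate 1 alone it was 0.738. Over the vehicle group alone r was 0.963, and over the AM6545 group alone 0.659. Actb and Limk1 had the lowest r, -0.738 (permutation p = 0.0155, adjusted 0.138; rho -0.515, permutation p = 0.133, adjusted 0.516). That value was -0.540 without the 2 libraries farthest from the median of Actb, and it was -0.901 over the vehicle group alone and -0.0071 over the AM6545 group alone.

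Outside the 10 genes, the closest patterns over the 10 libraries were searched among 9594 genes of at least 10 CPM, as Pearson's r of log2 CPM and as a description only. Actb was most like Rpl4 (0.980) and Akr1b3 (0.980), and Actg1 most like Ilf2 (0.993) and Ndn (0.991). Rac1 was most like Sec14l1 (0.975) and Arf3 (0.974), Limk1 like Josd1 (0.961) and Lasp1 (0.959), and Cfl1 like Hdac11 (0.888) and Ube2q1 (0.882). For Dbn1 these were Nudcd3 (0.979) and Spats2 (0.943), for Synpo Acsl1 (0.937) and Rab40b (0.911), and for Ddn Rmdn3 (0.940) and Tmem151b (0.932). Ppp1r9a was nearest to Pcm1 (0.966) and Dcaf10 (0.924), and Ppp1r9b to Tob2 (0.884) and Zfp46 (0.860). No gene appeared in the list of more than 1 of the 10.

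The transcript table split the 10 genes into 70 transcripts, of which 36 passed the filter. None of the 36 had an adjusted p under 0.05 in edgeR's test, beside 0.00314% of the 31848 transcripts tested, and 1 (Synpo-202) had an unadjusted p under 0.05, against 1.97% of all. Synpo-202 was listed at 0 in most vehicle libraries and passed the filter through the AM6545 group. Its p is therefore tied to the filter and is given as description only. With at least 10 counts required in every library, 25 transcripts were tested and 0 had an unadjusted p under 0.05. Shares of a gene's estimated count were also compared for the 24 transcripts that held at least 5% of their gene on average and could vary. By exact permutation tests 0 of 24 passed after adjustment (0.0% of 21551 shares tested did; adjusted p = 1.0 for each of the 24), and 3 had an unadjusted p under 0.05, against 4.12% of all shares. These were Synpo-202, Synpo-211 and Rac1-204. Synpo-202 reached the 5% minimum only through the AM6545 group, and Synpo-211 is a share of the same gene. The count of 3 therefore does not show an excess over that percentage. At a minimum share of 10% it was 1 of 19 (Synpo-211). The smallest p these tests can give with 5 against 5 libraries is 0.00794.

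Synpo-202 was the 1 share whose groups did not overlap, as was the case for 0.58% of all shares tested (0.32% higher and 0.26% lower in AM6545). Synpo-202 reached the 5% minimum only through the AM6545 group (mean share 17.0%, vehicle 1.17%). Its lack of overlap and its p are therefore tied to that filter and are given as description only. It held 5.86% of the Synpo count in vehicle replicate 4 and was listed at 0 in the other 4 vehicle libraries. In AM6545 replicates 1 to 5 it held 11.2, 20.7, 8.47, 21.4 and 23.1%. No AM6545 library thus fell as low as any vehicle library, and the mean difference was 15.8 percentage points (exact permutation p = 0.00794, adjusted p = 1.0). The estimated counts behind these shares were 36.1 in vehicle replicate 4 and 68.6, 108, 40.0, 134 and 120 in the AM6545 libraries. The main transcript, Synpo-211, was lower in turn, with 71.3 ± 6.62% in vehicle and 58.8 ± 3.80% with AM6545 (SD over the 5 libraries of each group; exact permutation p = 0.0159, adjusted p = 1.0). Both have a coding sequence of 2073 bases and differ mainly before it. Of the 31-base words of Synpo-211 only 1 occurs in no other transcript, against 102 for Synpo-202. Their summed share, chosen after the values were seen, was 72.5 ± 6.62% in vehicle and 75.7 ± 3.90% with AM6545 (SD, n = 5 each). Synpo-201, with the longer coding sequence of 2706 bases, held 16.3 ± 9.69% and 16.7 ± 3.85%, and was listed at 0 in vehicle replicate 2.

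Limk1 showed an all-or-none split. Limk1-202 held 79.7% of the gene's count in vehicle replicate 2, 52.5% in AM6545 replicate 1 and 57.7% in AM6545 replicate 2, and was listed at 0 in the other 7 libraries. Limk1-201 moved in mirror image, at 14.8% in vehicle replicate 2 and between 31.6 and 95.9% elsewhere. Their sum, chosen after the values were seen, was 90.8 ± 4.10% in vehicle and 91.4 ± 3.14% with AM6545 (SD, n = 5 each). The transcripts differ at the first exon and have 25 and 28 words of their own in Limk1-201 and Limk1-202.

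**Figure D5:**
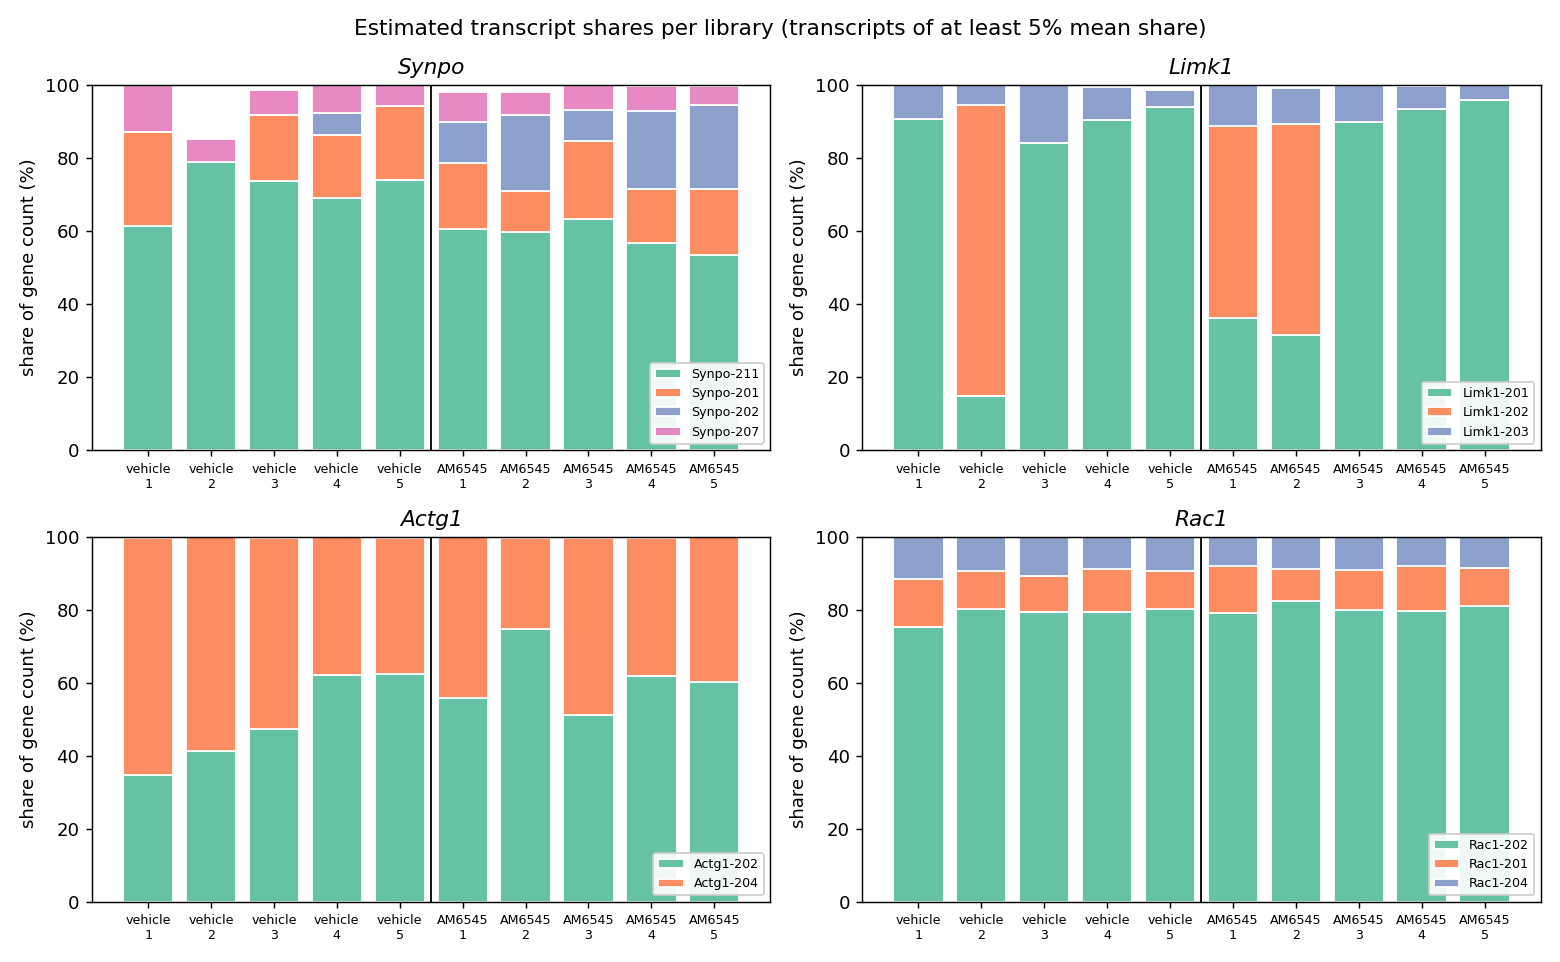
Estimated share (%) of each gene's count held by its transcripts of at least 5% mean share, per library, for Synpo, Limk1, Actg1 and Rac1, with vehicle to the left of the line. Synpo-202 is seen in all 5 AM6545 libraries and in vehicle replicate 4, Limk1-202 in 3 libraries only, and the Rac1 shares are nearly level.

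Rac1 has an alternative exon of 57 bases that adds an in-frame segment near the switch region of the GTPase and gives the form known as Rac1b. It is exon 4 of Rac1-202 at chr5:143509597-143509653 (minus strand, GRCm38) and is shown because the transcripts with and without it were estimated separately.
Rac1 exon 4 of Rac1-202: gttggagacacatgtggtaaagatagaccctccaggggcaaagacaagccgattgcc
Rac1-202 held 78.9 ± 2.06% of the gene's count in vehicle and 80.4 ± 1.27% in AM6545 libraries, and Rac1-201, which lacks the exon, 11.0 ± 1.31% and 11.0 ± 1.57% (SD, n = 5 each; exact permutation p = 0.238 and 0.952). The transcripts also differ after the coding sequence, with 1493 bases in Rac1-202 and 3341 in Rac1-201, so these shares do not tell use of the exon from use of the 3′ end. The short non-coding Rac1-204 held 10.1 ± 1.15% in vehicle and 8.52 ± 0.503% with AM6545 (SD over the 5 libraries of each group; exact permutation p = 0.0159, adjusted p = 1.0).

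Dbn1 likewise has an alternative exon, of 138 bases, and drebrin A, the form of mature neurons, differs from drebrin E by such an insert. It is exon 11 of Dbn1-201 at chr13:55476636-55476773 (minus strand, GRCm38), absent from Dbn1-202.
Dbn1 exon 11 of Dbn1-201: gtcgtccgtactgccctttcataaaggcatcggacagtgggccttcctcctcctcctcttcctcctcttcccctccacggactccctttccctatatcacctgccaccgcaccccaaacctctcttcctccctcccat
Dbn1-201 held 78.3 ± 2.07% of the count in vehicle and 77.5 ± 2.05% with AM6545 (SD over the 5 libraries of each group; exact permutation p = 0.556). The transcripts without the exon held 20.9 ± 2.35% and 21.4 ± 1.98%. Dbn1-201 had the largest share in every library, at 74.2% or more. Dbn1-201 and Dbn1-202 also differ after the coding sequence, with 794 and 279 bases, and Dbn1-203, which has the ends of Dbn1-201 without the exon, has 0 31-base words of its own. These shares therefore do not tell use of the exon from use of the 3′ end.

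The other genes had shares that did not pass an unadjusted test either. Actg1-202 held 49.6 ± 12.4% in vehicle and 60.7 ± 8.78% with AM6545 (SD over the 5 libraries of each group; exact permutation p = 0.151), and its partner Actg1-204 has no 31-base word of its own. Ppp1r9b-201 ran from 24.0 to 81.0% in vehicle and from 38.6 to 58.2% in AM6545 libraries, the rest being Ppp1r9b-202. Cfl1-202 and Cfl1-201 held 59.8% and 40.0% of Cfl1 over all libraries. Ppp1r9a-201, Ppp1r9a-205 and Ppp1r9a-211 held 64.8%, 25.1% and 8.98% of Ppp1r9a. The Actb count was divided almost evenly among Actb-207 (35.7%), Actb-201 (32.9%) and Actb-208 (31.1%), of which the first and the last are short models of 1242 and 930 bases against 1920, and the level per length of Actb rests on that division. Ddn-201 held all of Ddn.

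Of a wider list of 99 actin regulators, 98 were tested, all but Ssh3. With edgeR's test 0 had an adjusted p under 0.05, and 1 was higher (1.14% of all genes were) and 0 lower (0.738%) at an unadjusted p under 0.05. That count of 1 was 5 without AM6545 replicate 3 (all genes: 504 of 14460) and 5 without vehicle replicate 2 (578 of 14460). It was 2 without AM6545 replicate 1 (222 of 14453) or 2 (285 of 14485), so it moved along with the count over all genes in part. Of the 98, 64 lay above 0 and 34 below, with a median log2 fold change of 0.034 beside -0.0058 over all genes. The median was 0.00058 for 20 genes of actin monomers and filament ends (10 above 0), in which Tmsb4x, a monomer-sequestering thymosin, was the most abundant with a level per length of 5037. It was -0.015 for the 10 genes of the Arp2/3 complex, which nucleates branches (5 above 0; Arpc2 at 529), and 0.014 for the 14 WAVE and WASP proteins that activate that complex (7 above 0; Brk1 at 417). For 13 cofilin kinases and phosphatases it was 0.033 (10 above 0; Pdxp at 255), and for 20 crosslinkers, motors and spine adaptors 0.081 (15 above 0; Myl6 at 575).

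The gene past the unadjusted threshold with all libraries was Vav2, an exchange factor that activates Rac1. It was at 1.12, 2.32, 2.39, 1.72 and 2.21 CPM in vehicle and 2.84, 2.74, 3.42, 3.04 and 3.17 CPM in AM6545 libraries. Every AM6545 value exceeded the highest vehicle value, as for no other gene among the 98, beside 0.293% of all genes. The log2 fold change was 0.64 ± 0.21 (SE; edgeR, adjusted p = 0.9998). It was 0.50 without vehicle replicate 1, its lowest library, and 0.72 without vehicle replicate 3. All values of Vav2 lay below the lowest of Limk1 (5.05 CPM), so Vav2 rested on fewer counts than Limk1. The next gene upward was Tmsb10, another thymosin, at 11.0 CPM in vehicle and 13.8 in AM6545 libraries (log2 fold change 0.32 ± 0.18, SE). Downward they were Arpc5l, an Arp2/3 subunit, at 163 and 145 CPM (log2 fold change -0.17), and Wipf3, a WASP-interacting protein, at 104 and 92.6 CPM (log2 fold change -0.17), and the edgeR adjusted p was 0.9998 for all of these. Without vehicle replicate 1, Arpc5l was at -0.087 and Wipf3 at -0.077 on the log2 scale. Tmsb10 ran from 0.20 without AM6545 replicate 5 to 0.46 without AM6545 replicate 1. Its unadjusted edgeR p was 0.00485 without AM6545 replicate 1 and 0.0484 without vehicle replicate 2, and above 0.05 with any other library left out.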

How the data were processed

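Total RNA of 10 hippocampal synaptoneurosome preparations was sequenced from SMARTer libraries, per the labels' protocols. The authors deposited estimated counts per gene and per transcript, made with Salmon 1.5.2 on mm10 per the submitters' processing notes; annotation release and strand use are not given in the sources used here. Counts were rounded and fitted in edgeR 4.0.16 (R 4.3.3; TMM, filterByExpr with minimum count 10 and total 15, robust quasi-likelihood, group only), with Benjamini-Hochberg adjustment over all features at 0.05. Log2 CPM used a prior count of 2. Shares, ratios and marker means had two-sided exact permutation tests; correlations had 100000 resamples (scipy 1.17.1). Identifiers were matched without version to GENCODE M21. The scripts were tested on simulated gene counts with known changes in genes drawn from the whole table. At the adjusted threshold, 6.67% of 1.25-fold and 48.7% of 1.5-fold changes were called, so small changes can be missed. The 95% intervals held 92% and 90.7% of these changes, and 95.4% for unchanged genes. The 10 genes, the wider lists and the tests were chosen with earlier results of these data known. Named are all 10 genes, their transcripts of at least 5% share, the 2 nearest genes by r, and of the wider list the most abundant gene of each sublist and those past the threshold, or else the 2 of smallest p per direction. The summary of 1 sublist is not reported here. Alternatives were DESeq2 1.42.0, limma 3.58.1 voom, other scalings and filters, dispersion without robust estimation, a replicate block and leaving out each library. Totals of 18106112 to 25899794 counts limit genes of few counts, such as Limk1 and Vav2, and single transcripts most. Estimates carry an assignment error that the standard errors leave out.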

Additional observations from a re-analysis of the deposited data

Results flagged for a closer look

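Among 92 groups of 5 libraries checked for a library far from the others, 8 held one. About 4.6 would be met by chance if the groups were independent and their values continuous. They were not: Limk1-201 and Limk1-202 mirror each other, and Limk1-202 and Synpo-202 were at 0 in the other vehicle libraries. The numbers 8 and 4.6 therefore do not show an excess. The 8 concern transcript shares of the spine actin genes and marker means. The Limk1-202 share was 79.7% in vehicle replicate 2 and 0 in the other vehicle libraries, and the Limk1-201 share there was 14.8% against 84.2 to 93.9%. Synpo-202 held 5.86% in vehicle replicate 4 and 0 in the others, and Synpo-207 12.9% in vehicle replicate 1 against 5.86 to 7.79%. Rac1-202 held 75.3% in vehicle replicate 1 against 79.3 to 80.2% in the others. The choroid plexus markers had a mean log2 CPM of 1.42 in vehicle replicate 4 against 5.89 to 6.26. The endothelium and pericyte markers were at 2.25 in AM6545 replicate 5 against 1.85 to 1.91, and the red blood cell markers at 7.44 in AM6545 replicate 3 against 5.38 to 5.91.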

How the results depend on the processing

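No spine actin gene, and no gene of the wider list, passed the adjusted threshold under any of the 8 other settings or with any of the 10 libraries left out. Over all genes, the DESeq2 Wald test called 0 (276 at an unadjusted p under 0.05), limma-voom with quality weights called 1 gene (706 at an unadjusted p under 0.05), and leaving out 1 library called 0 to 1, with 1 gene without AM6545 replicate 3 or vehicle replicate 3. Voom also gave 4 genes of the wider list and 1 spine actin gene with an unadjusted p under 0.05, Synpo, and put Actb above 0 (0.048). Limk1 lay at -0.0020 with the DESeq2 Wald test, -0.0012 with DESeq2 size factors and -0.0016 with total count scaling. With 1 library left out, the log2 fold change ran from -0.16 to 0.033 for Actb, from -0.14 to 0.17 for Limk1 and from -0.036 to 0.069 for Ppp1r9a, and the difference of the Limk1 to Cfl1 ratio from -0.19 to 0.14; the cause was not tested. The Synpo-202 difference ran from 14.3 to 17.9 percentage points; at a 10% minimum share it was not among the transcripts tested. Between same-numbered libraries the r of their deviations was -0.1402, -0.186, 0.232, 0.394 and 0.0646 for numbers 1 to 5. Of the 5 vehicle libraries, 3 correlated best with the AM6545 library of their own number. Whether the numbers pair the libraries was not tested. With the replicate number as a block, 0 genes passed (277 at an unadjusted p under 0.05, 2 of them in the wider list). With the block, the exact test of a share or ratio cannot give a p under 0.0625.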
